A study of Mus musculus with 16 samples.

Results

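Measured here was a set of 40 mouse genes of the interferon response and of antigen presentation, grouped by role into sensors of RNA and DNA, transcription factors, the ISG15 pathway, antiviral effectors, other induced genes, GTPases and antigen presentation. The members were chosen by gene name, but with measured values in view: they were selected on earlier results of the same arrays that had shown interferon genes moving in the offspring of irradiated and of heated freeze-dried sperm. Values of those groups against freeze-dried sperm are therefore given as a description, with no p for any member. The counts of calls in them stand beside the share of all genes and features and support nothing.

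Interferons are secreted alarm proteins that act through receptors on the surface of nearly every cell. Their receptors switch on Janus kinases, which activate a complex of factors that holds Stat2 and Irf9. These factors enter the nucleus and induce a large set of genes that sense foreign RNA, block viral replication and load peptides onto class I molecules for display to T cells. In the brain the response is best known from infection, and microglia, the resident macrophages, are among the cells that mount it.

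Of the 40 members, 38 had at least 1 probe on the array. No probe was matched to Mx1 and Mx2, which are not analysed here, and the 2 probes of Zbp1, a sensor of Z-form nucleic acids, were well above background on 7 and on 0 of the 16 arrays. Zbp1 was not tested for that reason, which left 37 members among 26477 genes and features tested. Each of the 37 was well above background on all 16 arrays except Ifit1, which was so on 14. The filter on dim probes kept a probe that was measured in any 1 group, so the 37 are the members that passed it and not the whole set.

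The 16 arrays each carried RNA from the brain of 1 C57BL/6 neonate at postnatal day 1, with 4 animals per group. The sperm that gave rise to them was freeze-dried and given 5 Gy of X-rays (FD 5 Gy), freeze-dried and kept at 95 °C for 1 h (FD 95 °C), freeze-dried only (FD) or used fresh (fresh). It was the sperm, not the neonate, that was treated. Which animals were littermates is not given, and p-values from littermates treated as independent come out too low. A level is the log2 signal minus the array's own 75th percentile, and differences are log2 differences with their standard error (SE). A gene was called at a Benjamini-Hochberg adjusted p under 0.05 over all genes and features tested with limma.

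The arrays differed in ways that the groups do not explain. They lay on 2 slides: slide 1 held animals 1 and 2 of FD 5 Gy, all 4 FD animals and fresh animals 1 and 2, and slide 2 held animals 3 and 4 of FD 5 Gy, all 4 FD 95 °C animals and fresh animals 3 and 4. FD 95 °C and FD share no slide, so the slide and the heat treatment cannot be told apart in their direct comparison. The 4 Y-linked marker genes were low in FD 5 Gy animal 4, FD 95 °C animals 1 to 3 and fresh animals 1 and 3, and high in the other 10 animals, all 4 FD animals among them. The mean of the 8 hindbrain markers, which are Hox genes, was low in 4 arrays (Hox-low): FD 95 °C animals 2 and 4, FD animal 2 and fresh animal 2. Their mean signals were -3.95, -4.59, -1.67 and -4.30 after centring each gene, against 0.0023 to 1.62 in the other 12 arrays. Hoxb3 did not share the drop, at -3.145 and -3.37 in FD 95 °C animals 2 and 4 and -3.22 in fresh animal 2, against -3.35 in FD 5 Gy animal 1. The mean of the 9 neuron markers varied little among the arrays, with centred values from -0.0585 to 0.0949. Of these markers Tubb3 had no value in FD 5 Gy animal 1.

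Many genes of this response carry an interferon-stimulated response element (ISRE) near their start, the site bound by the complex that holds Stat2 and Irf9. Others carry a gamma-activated site (GAS). The RefSeq promoter windows of GRCm38.p6, which run from 250 bases before to 50 bases after the start of a gene, were searched on both strands for the ISRE core GAAANNGAAA and for the GAS letters TTCNNNGAA, and matches of the 2 motifs may overlap. A window was found for 31 members. The ISRE core stood in 18 of them, or 58.1%, against 3.99% of 27025 genes with a window, and the GAS letters stood in 8, or 25.8%, against 9.55% of all genes. A match is a description of the letters and not evidence of binding. Stretches of 8 windows are shown as examples, with matches of both motifs in capitals and the other bases in lower case. Signals of these genes in every animal are given below, and their matches lie before or at the start. The same holds for some genes not shown, such as Rsad2, Gbp2 and Stat2. The first 4 come from an ubiquitin-like modifier and 3 antiviral effectors: Isg15 at chr4:156200850-156200921 on the minus strand, Ifit1 at chr19:34640760-34640838 on the plus strand, Ifit3 at chr19:34583348-34583441 on the plus strand and Oas1a at chr5:120907505-120907648 on the minus strand.
Isg15: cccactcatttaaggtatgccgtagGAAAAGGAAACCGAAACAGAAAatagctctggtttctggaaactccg
Ifit1: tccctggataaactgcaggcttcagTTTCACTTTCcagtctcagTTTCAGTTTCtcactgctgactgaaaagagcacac
Ifit3: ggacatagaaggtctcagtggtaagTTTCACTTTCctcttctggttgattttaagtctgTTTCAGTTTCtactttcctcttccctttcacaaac
Oas1a: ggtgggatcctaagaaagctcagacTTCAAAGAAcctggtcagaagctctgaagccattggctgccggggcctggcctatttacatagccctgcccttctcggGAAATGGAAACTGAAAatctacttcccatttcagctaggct
Isg15 has 3 overlapping ISRE matches and Ifit1, Ifit3 and Oas1a have 2 each, and the Oas1a stretch also holds a GAS match. The next 3 come from GTPases that act against pathogens inside cells, and the last from the light chain of class I molecules: Gbp3 at chr3:142559974-142560039 on the plus strand, Igtp at chr11:58199486-58199556 on the plus strand, Tgtp2 at chr11:49064248-49064318 on the minus strand and B2m at chr2:122147523-122147582 on the plus strand.
Gbp3: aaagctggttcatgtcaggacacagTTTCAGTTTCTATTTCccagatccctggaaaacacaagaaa
Igtp: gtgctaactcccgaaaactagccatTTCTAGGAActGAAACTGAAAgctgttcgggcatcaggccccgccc
Tgtp2: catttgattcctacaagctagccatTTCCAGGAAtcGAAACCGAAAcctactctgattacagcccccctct
B2m: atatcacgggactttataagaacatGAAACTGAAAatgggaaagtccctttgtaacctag
Igtp and Tgtp2 carry a GAS match closely followed by an ISRE match, Gbp3 carries 2 overlapping ISRE matches and B2m carries 1. The windows of Irf7, Irf9, Oasl2, Cmpk2, Ifi44, Xaf1, Lgals3bp, Psmb9, Tap1, H2-K1 and H2-D1 held neither set of letters.

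Across the set, the FD 5 Gy and FD 95 °C brains had the higher signals and the fresh brains the lowest. After centring each gene on its mean over all arrays, the mean of the 37 members was 0.30, 0.61, 0.12 and -0.16 in FD 5 Gy animals 1 to 4 and 0.18, 0.31, 0.25 and 0.30 in the FD 95 °C animals. It was -0.35, -0.083, 0.052 and -0.30 in the FD animals and -0.22, -0.52, -0.37 and -0.12 in the fresh animals. The FD 95 °C animals lay close together and above every FD and fresh animal, whereas the FD 5 Gy animals ran over a wide range, with animal 2 above and animal 4 below all FD 95 °C animals. Expression of the 14 microglial markers, all of them detected, moved in part with these means. Their centred mean was 0.12, 0.10, 0.013 and -0.12 in the FD 5 Gy animals, 0.11, 0.13, 0.077 and 0.064 in the FD 95 °C animals, 0.021, -0.068, -0.0073 and -0.028 in the FD animals and -0.097, -0.19, -0.073 and -0.048 in the fresh animals. The part of microglia in the values of the interferon genes was not tested, and in whole brain more microglia and more RNA per cell cannot be told apart.

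**Figure D1:**
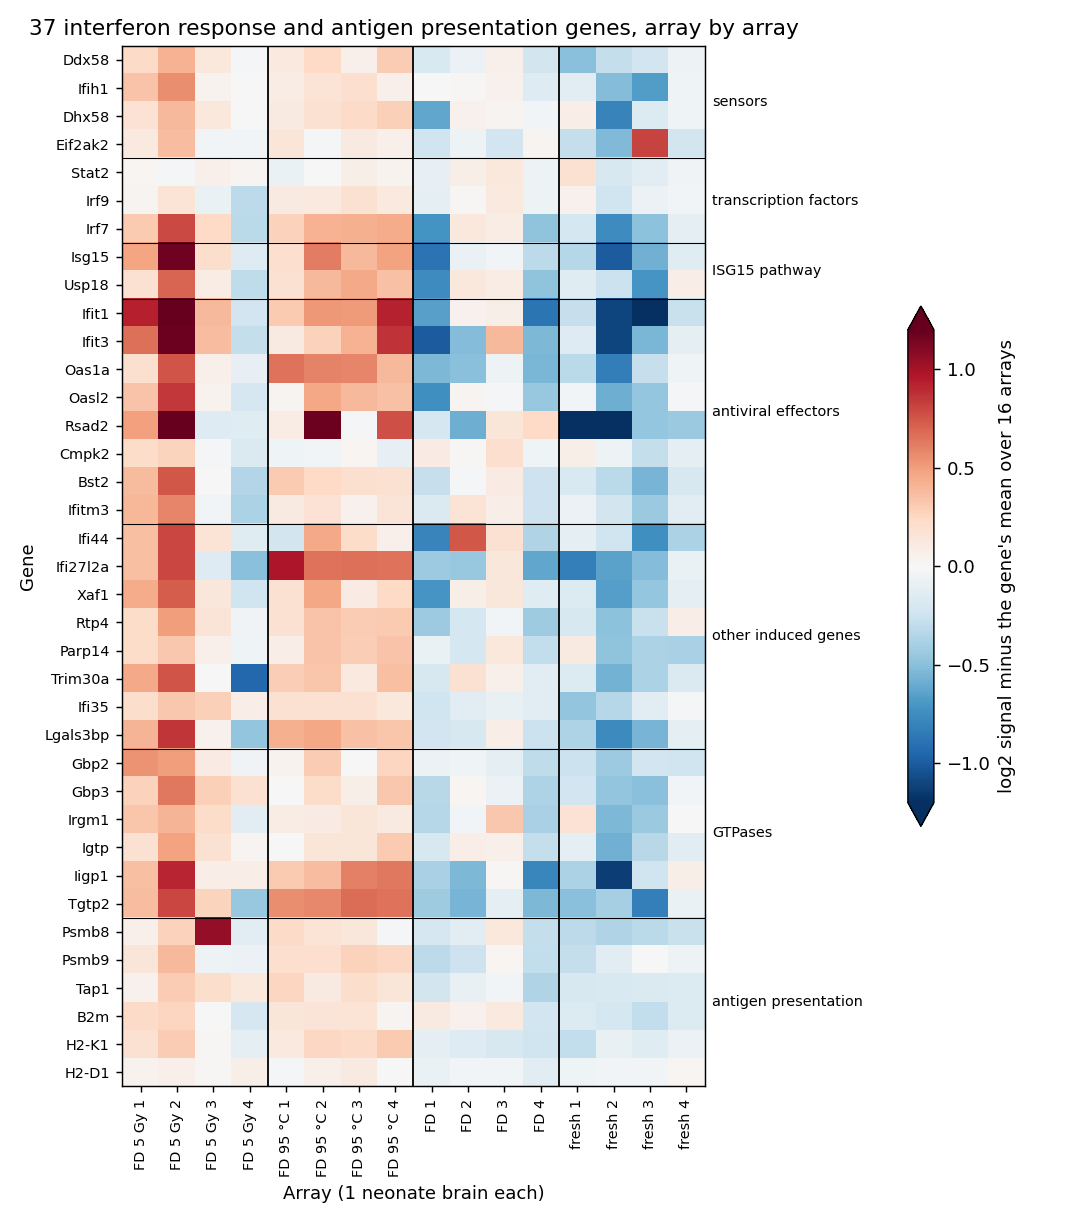
Centred log2 signal of the 37 tested members (rows, grouped by role) in each of the 16 arrays (columns, 4 groups of 4 animals), with red above and blue below the mean of the gene over all arrays and colours saturating at the ends of the bar. Most rows are red in FD 5 Gy animals 1 and 2 and in the FD 95 °C animals and blue in the fresh animals, and FD 5 Gy animal 4 is pale or blue in most rows.

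**Figure D2:**
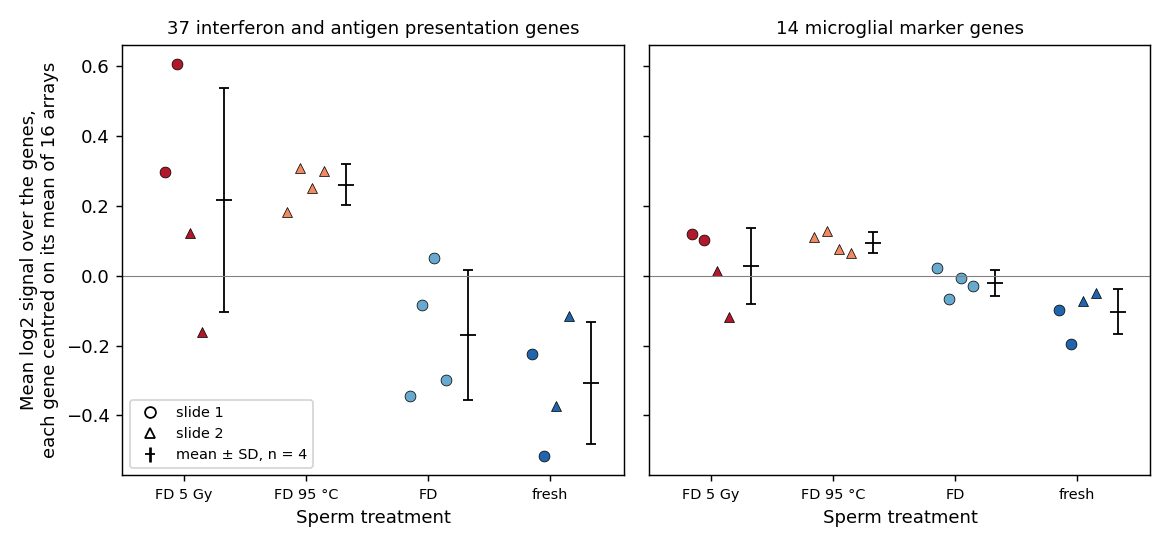
Mean centred log2 signal of the 37 members (left) and of the 14 microglial markers (right) in each animal, with circles for slide 1, triangles for slide 2 and bars for mean ± SD of 4 animals. The FD 95 °C animals lie between 0.18 and 0.31 for the members and between 0.064 and 0.13 for the microglial markers, and the FD 5 Gy animals on slide 1 lie above those on slide 2 in both.

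The comparison of FD 5 Gy with FD asks what X-rays given to the dried sperm add. All of the 37 members but Irf9 were higher, with a median log2 difference of 0.35, against 0.015 over all genes and features. limma called 0 members and 0% of all genes and features higher, and 19 members passed an unadjusted p under 0.05 upwards, beside 4.11% of all. The 4 animals of both groups did not overlap for 7 members (Gbp2, Gbp3, H2-D1, H2-K1, Ifi35, Iigp1 and Tap1), beside 2.79% of all. These counts use the contrast by which the set was chosen, and nothing is read from them.

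FD 95 °C against FD asks the same of heat. All of the members but Cmpk2 were higher, with a median of 0.34, against 0.018 over all genes and features. limma called 7 members higher, beside 2.5% of all, and 19 members did not overlap between the groups, beside 11.4% of all. This contrast was also in view when the set was chosen, and nothing is read from the counts. The count of 7 rested on single arrays: it was 3, 1, 3 and 2 without FD 95 °C animals 1, 2, 3 and 4, and 4, 1 and 4 without FD animals 1, 2 and 4. The share of all called higher ran from 0.54% to 3.86% over the 16 fits that each left out 1 array. The count of members was 0 with the slide as a block (0% of all), 0 in the deposited value table (0% of all) and 0 when the 4 Hox-low arrays were dropped (0.0227% of all), while the median difference was 0.59, 0.29 and 0.33 in these settings. With the mean Y-linked signal added to the fit, the count was 3 (0.487% of all) and the median 0.46.

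FD against fresh sets freeze-drying alone against no drying, and no member passed the test in it. The median difference was 0.15, against 0.018 over all, and 28 of 37 were higher. Ifih1 and B2m alone passed an unadjusted p under 0.05 upwards, that is 2 of 37 beside 6.31% of all genes and features, and limma called 0 members and 0% of all. The median was 0.061 without fresh animal 2, 0.092 without FD animal 2 and 0.075 without FD animal 3, and 0.044 with the slide as a block. It was 0.046 after normexp background correction, 0.050 with the Y-linked signal in the fit and 0.0091 when the 4 Hox-low arrays were dropped.

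Against fresh, both treated groups stood higher in every one of the 37 members, each measured by its brightest probe. A second probe went the other way for Tap1 in FD 95 °C (-0.13 ± 0.28 SE) and for Irf9 in FD 5 Gy (-0.023 ± 0.13 SE). These comparisons share the FD 5 Gy and FD 95 °C animals with the contrasts that chose the set, so they are not independent of it, and they share the fresh animals with each other. In FD 5 Gy the median difference was 0.51, against 0.032 over all, and 4 members were called (Ifi35, Gbp2, Gbp3 and Tap1), beside 0.865% of all. In FD 95 °C the median was 0.47, against 0.032 over all, and 10 members were called (Ddx58, Ifit1, Oas1a, Ifi27l2a, Parp14, Ifi35, Lgals3bp, Tgtp2, Tap1 and H2-K1), beside 2.39% of all. The groups did not overlap for 11 members in FD 5 Gy, beside 5.54% of all, and for 30 members in FD 95 °C, beside 7.53% of all.

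Both counts of calls rested on single arrays. The 4 calls of FD 5 Gy against fresh became 0, 0, 0 and 7 without FD 5 Gy animals 1, 2, 3 and 4, 2, 0, 1 and 8 without fresh animals 1, 2, 3 and 4, and 2 without FD 95 °C animal 3. The 10 calls of FD 95 °C against fresh became 5, 2, 3 and 5 without FD 95 °C animals 1, 2, 3 and 4 and 5 and 1 without fresh animals 1 and 2. Over the 16 fits that each left out 1 array, the share of all genes and features called higher ran from 0.132% to 1.29% in FD 5 Gy and from 0.82% to 3.21% in FD 95 °C. The call of FD 5 Gy against fresh held in 12 fits for Ifi35, 10 for Gbp3, 8 for Tap1 and 4 for Gbp2. That of FD 95 °C against fresh held in 15 for Tgtp2, 14 for Oas1a and Ifi27l2a, 13 for Tap1 and 12 for Ifi35. It held in 11 for H2-K1, 8 for Ddx58 and Parp14 and 3 for Ifit1 and Lgals3bp. When the 4 Hox-low arrays were dropped both counts of called members were 0, as they were for all genes and features (0% called higher in each). The medians then were 0.43 for FD 5 Gy and 0.39 for FD 95 °C. Over the settings run on both slides together, the median stayed between 0.38 and 0.66 for FD 5 Gy and between 0.36 and 0.55 for FD 95 °C.

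**Figure D3:**
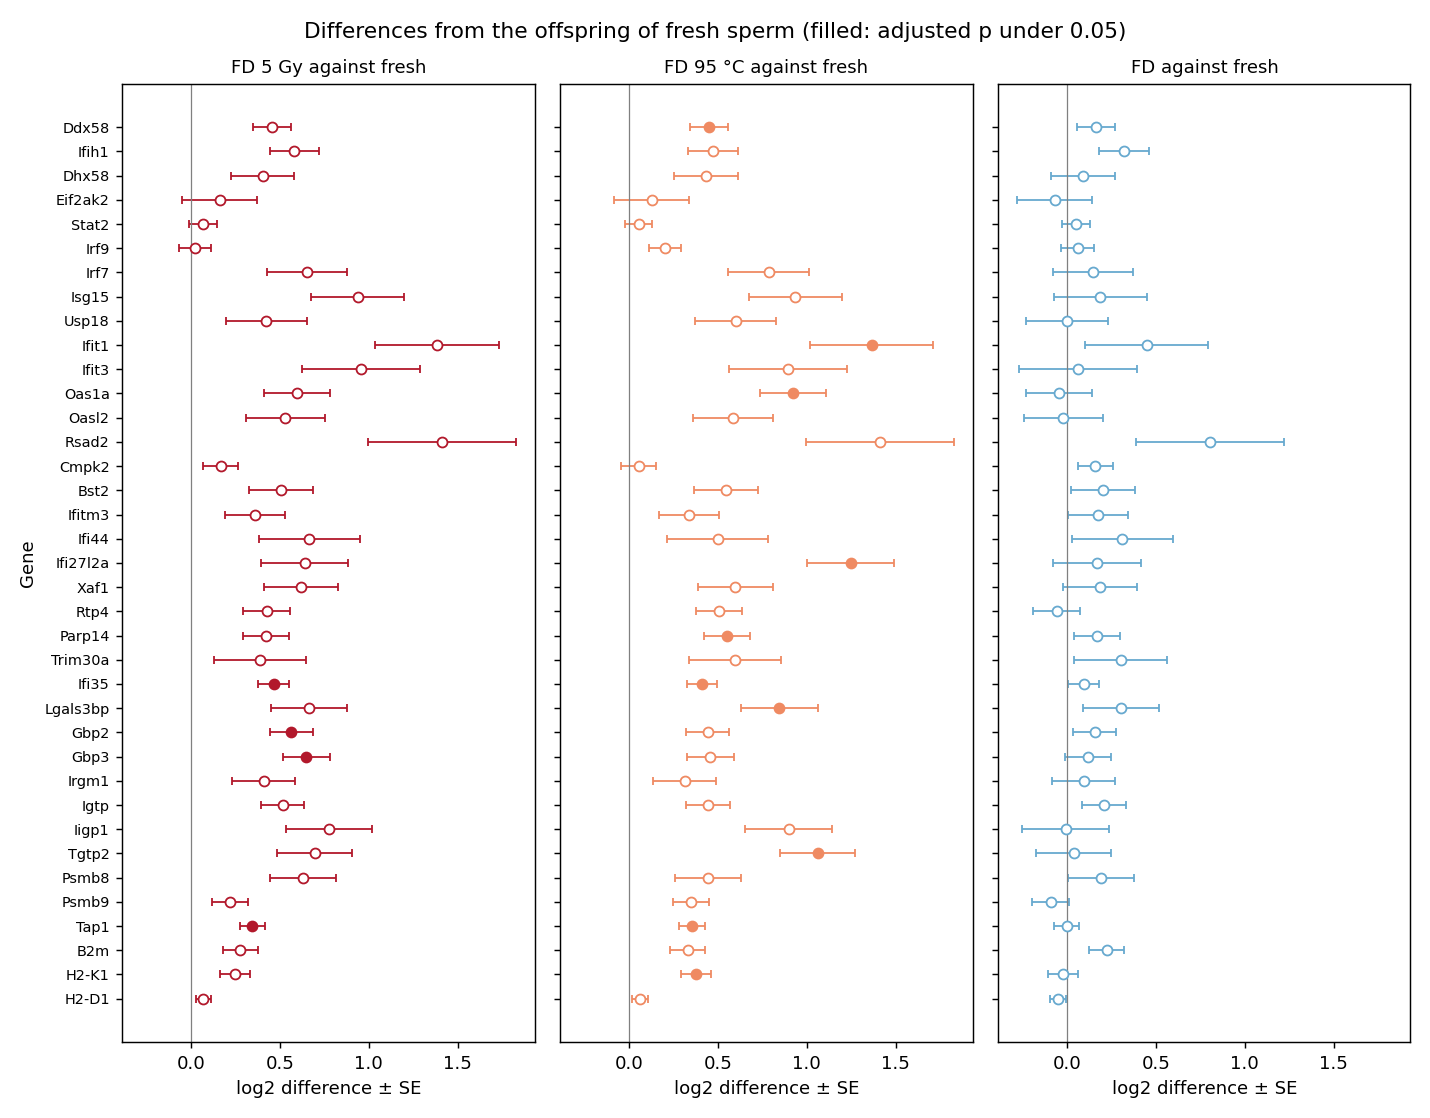
Log2 difference from the fresh group, with its SE, for each of the 37 members (rows) in FD 5 Gy (left), FD 95 °C (middle) and FD (right), with filled points for an adjusted p under 0.05. All points lie right of 0 for FD 5 Gy and FD 95 °C, with 4 and 10 filled, and 28 of 37 lie right of 0 for FD, with 0 filled.

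The direct comparison of FD 5 Gy with FD 95 °C was near 0 for the set, with a median of -0.0004 and 18 members higher and 19 lower. limma called 0 members, beside 0.472% of all genes and features higher, and 0 members passed an unadjusted p under 0.05 upwards, beside 6.57% of all. Ifi27l2a alone passed it downwards, beside 7.2% of all (-0.61 ± 0.25 SE, adjusted p = 0.282). A p that misses the threshold does not show that the 2 treatments act alike. Within slide 2, the only slide that holds both groups, the median was -0.28 and 32 of 37 members were lower in FD 5 Gy. There 0 members were called, beside 0.0944% of all lower, and 11 passed an unadjusted p under 0.05 downwards, beside 5.82% of all.

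The sensors recognise foreign RNA in the cytoplasm and the 4 tested ones were higher in FD 5 Gy than in FD by a median of 0.28 and higher in FD 95 °C than in FD by 0.24. Ddx58 encodes RIG-I, which binds viral RNA ends. Its levels were -0.74, -0.56, -0.84 and -0.98 in the FD 5 Gy group, -0.85, -0.73, -0.91 and -0.66 in the FD 95 °C group, -1.15, -1.04, -0.91 and -1.19 in the FD group and -1.47, -1.25, -1.19 and -1.03 in the fresh group. Fresh animals were all below the animals of both treated groups. The difference from fresh was 0.46 ± 0.11 SE in FD 5 Gy (adjusted p = 0.0506) and 0.45 ± 0.11 SE in FD 95 °C (adjusted p = 0.0374). Ifih1, which encodes the long-RNA sensor MDA5, was measured at -2.36, -2.15, -2.66 and -2.70 in the FD 5 Gy group, -2.62, -2.54, -2.50 and -2.64 in the FD 95 °C group, -2.71, -2.69, -2.65 and -2.86 in the FD group and -2.84, -3.22, -3.38 and -2.76 in the fresh group. Its FD 95 °C animals lay above all FD and fresh animals, and its FD 5 Gy animals overlapped those of FD. Dhx58 encodes LGP2, a partner of both sensors, and stood at -3.73, -3.51, -3.78 and -3.90 in the FD 5 Gy group, -3.80, -3.72, -3.67 and -3.61 in the FD 95 °C group, -4.53, -3.85, -3.87 and -3.93 in the FD group and -3.82, -4.70, -4.06 and -3.95 in the fresh group. FD animal 1 and fresh animal 2 were well below the others of their groups. For Eif2ak2, the RNA-activated kinase PKR that shuts down translation, the means were -2.45 ± 0.19 in FD 5 Gy, -2.48 ± 0.073 in FD 95 °C, -2.68 ± 0.14 in FD and -2.61 ± 0.59 in fresh brains (SD, n = 4 each). Fresh animal 3 had -1.75, the highest of all 16 animals, so that the groups overlapped.

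Among the 3 transcription factors Irf7 had the largest differences. Irf7, the factor that amplifies the production of type I interferon, had levels of 0.47, 0.95, 0.39 and -0.17 in the FD 5 Gy group, 0.43, 0.57, 0.58 and 0.60 in the FD 95 °C group, -0.56, 0.28, 0.24 and -0.33 in the FD group and -0.062, -0.60, -0.34 and 0.033 in the fresh group. The FD 95 °C group was tight and above every FD and fresh animal, and FD 5 Gy animals spread across both. Set against fresh, Irf7 differed by 0.65 ± 0.23 SE in FD 5 Gy (adjusted p = 0.165) and 0.79 ± 0.23 SE in FD 95 °C (adjusted p = 0.0802). Stat2, the subunit of the ISRE-binding complex that activates transcription, gave 1.75, 1.70, 1.78 and 1.76 in the FD 5 Gy group, 1.65, 1.73, 1.80 and 1.76 in the FD 95 °C group, 1.62, 1.79, 1.85 and 1.66 in the FD group and 1.91, 1.53, 1.59 and 1.68 in the fresh group. These groups overlapped fully, and the fresh animals alone spanned the range of all others. Irf9, which carries the DNA contact of the same complex, gave 1.38, 1.499, 1.26 and 1.03 in the FD 5 Gy group, 1.44, 1.46, 1.52 and 1.45 in the FD 95 °C group, 1.23, 1.35, 1.45 and 1.28 in the FD group and 1.39, 1.101, 1.27 and 1.31 in the fresh group. FD 5 Gy animal 4 had the lowest Irf9 signal of all, and its difference from fresh was 0.024 ± 0.091 SE in FD 5 Gy and 0.20 ± 0.091 SE in FD 95 °C, with adjusted p of 0.927 and 0.258 from limma.

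Isg15 is an ubiquitin-like protein that is attached to others during the interferon response, and Usp18 is the protease that removes it and dampens the receptor. Isg15 stood at 1.45, 2.15, 1.19 and 0.83 in the FD 5 Gy group, 1.18, 1.60, 1.37 and 1.46 in the FD 95 °C group, 0.093, 0.91, 0.95 and 0.67 in the FD group and 0.64, -0.014, 0.40 and 0.84 in the fresh group. Every FD 95 °C animal was above the FD and fresh animals, FD 5 Gy animals 1 to 3 were too, and FD 5 Gy animal 4 lay among them. The difference from fresh was 0.94 ± 0.26 SE in FD 5 Gy (adjusted p = 0.0917) and 0.94 ± 0.26 SE in FD 95 °C (adjusted p = 0.0726), a fold of 1.92 and of 1.91. Usp18 showed -2.76, -2.25, -2.86 and -3.25 in the FD 5 Gy group, -2.77, -2.56, -2.50 and -2.60 in the FD 95 °C group, -3.71, -2.82, -2.86 and -3.43 in the FD group and -3.09, -3.21, -3.65 and -2.87 in the fresh group. FD 5 Gy animals 3 and 4 overlapped FD animals, and the FD 95 °C animals overlapped neither FD nor fresh animals.

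The 8 tested antiviral effectors block steps of viral growth, and 2 of them, Ifit1 and Rsad2, had the widest differences from fresh of the set. Ifit1 binds viral RNA that lacks the methylated cap of host messages, and its levels were -3.27, -2.96, -3.82 and -4.44 in the FD 5 Gy group, -3.90, -3.69, -3.70 and -3.29 in the FD 95 °C group, -4.86, -4.16, -4.13 and -5.09 in the FD group and -4.48, -5.31, -5.76 and -4.48 in the fresh group. All FD 95 °C animals were above all FD and fresh animals, and FD 5 Gy animals 1 to 3 were as well. Ifit1 stood above fresh by 1.38 ± 0.35 SE in FD 5 Gy (adjusted p = 0.0634) and 1.37 ± 0.35 SE in FD 95 °C (adjusted p = 0.0497). After normexp background correction the FD 95 °C difference of Ifit1 was 0.51 and did not pass. Ifit3, the partner that stabilises Ifit1, had -1.58, -1.06, -1.87 and -2.53 in the FD 5 Gy group, -2.13, -1.96, -1.82 and -1.37 in the FD 95 °C group, -3.23, -2.76, -1.84 and -2.78 in the FD group and -2.39, -3.34, -2.79 and -2.35 in the fresh group. FD animal 3 reached the FD 95 °C range, and the fresh animals stayed below it. Ifit3 has a close paralog in Ifit3b, so part of its signal may come from that gene.

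Oas1a, an oligoadenylate synthetase that activates the RNA-degrading RNase L, stood at -0.96, -0.40, -1.10 and -1.26 in the FD 5 Gy group, -0.51, -0.56, -0.58 and -0.77 in the FD 95 °C group, -1.70, -1.66, -1.22 and -1.71 in the FD group and -1.48, -1.99, -1.43 and -1.21 in the fresh group. FD 95 °C animals lay above all FD and fresh animals, and FD 5 Gy animal 4 did not. Its difference from fresh was 0.92 ± 0.19 SE in FD 95 °C, a fold of 1.9 (adjusted p = 0.0186), and 0.60 ± 0.19 SE in FD 5 Gy (adjusted p = 0.127). Rsad2 encodes viperin, which makes a chain-terminating nucleotide, and gave -1.37, -0.033, -2.02 and -2.01 in the FD 5 Gy group, -1.77, -0.69, -1.88 and -1.09 in the FD 95 °C group, -2.07, -2.44, -1.72 and -1.62 in the FD group and -3.06, -3.39, -2.32 and -2.31 in the fresh group. Its SD in FD 5 Gy, 0.93, was the largest of any member in any group, with FD 5 Gy animal 2 highest and fresh animals 1 and 2 lowest. Rsad2 stood above fresh by 1.41 ± 0.42 SE in FD 5 Gy and 1.41 ± 0.42 SE in FD 95 °C (adjusted p = 0.11 and 0.0866 from limma).

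The other 4 effectors had smaller differences. Oasl2, a relative of Oas1a, averaged -0.70 ± 0.45 in FD 5 Gy, -0.65 ± 0.19 in FD 95 °C, -1.25 ± 0.36 in FD and -1.23 ± 0.29 in fresh brains (SD, n = 4 each). Bst2, or tetherin, which holds budding virus on the cell, averaged 0.62 ± 0.47 in FD 5 Gy, 0.66 ± 0.059 in FD 95 °C, 0.31 ± 0.18 in FD and 0.11 ± 0.17 in fresh brains. Ifitm3 hinders virus entry and averaged 1.55 ± 0.43 in FD 5 Gy, 1.53 ± 0.055 in FD 95 °C, 1.36 ± 0.20 in FD and 1.19 ± 0.17 in fresh brains. For all 3 the SD in FD 5 Gy was more than that in FD 95 °C. Cmpk2, a nucleotide kinase whose gene lies beside Rsad2, was the only member with a lower mean in FD 95 °C (0.70 ± 0.050) than in FD (0.81 ± 0.11).

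**Figure D4:**
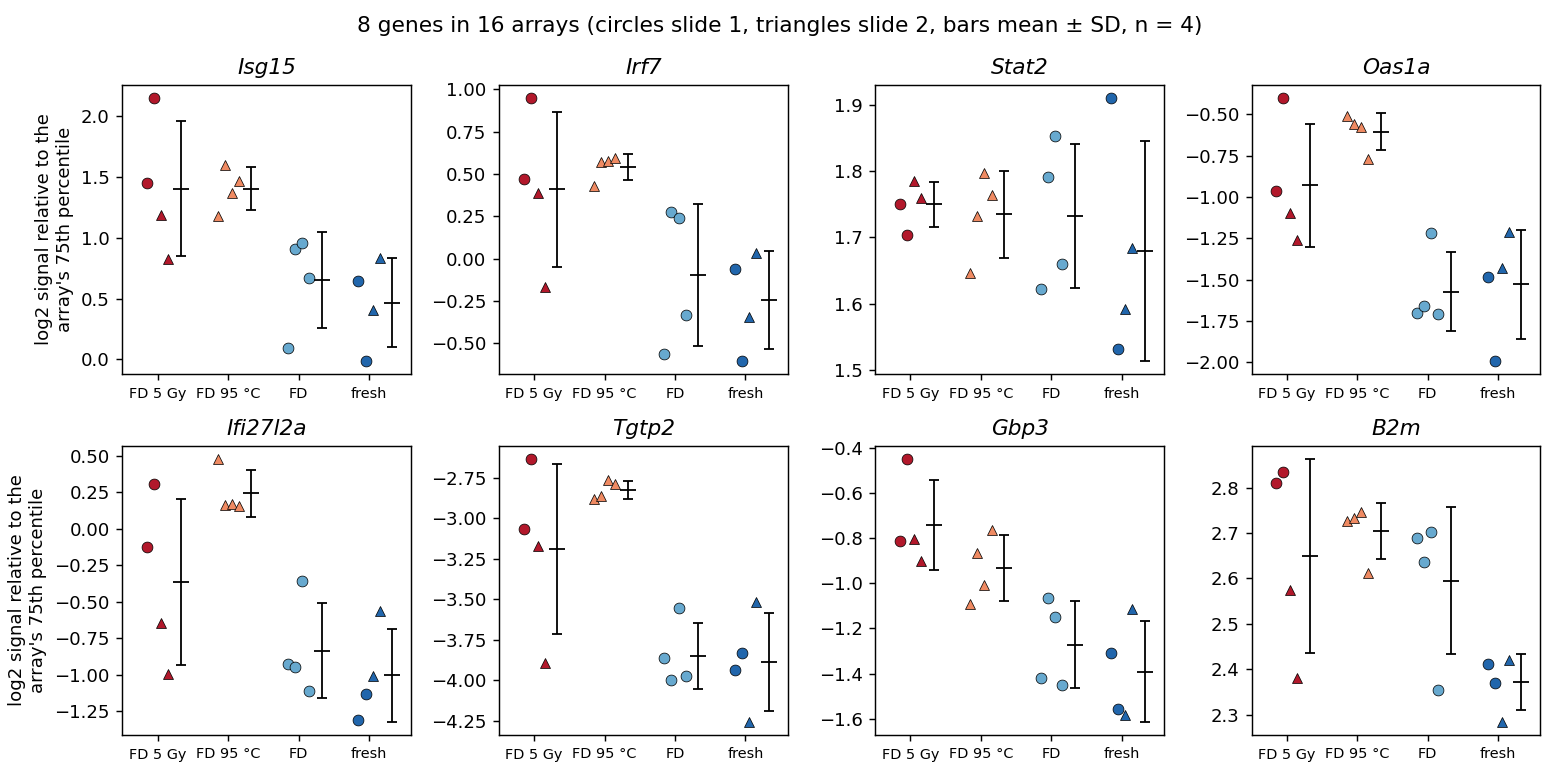
Log2 signal of 8 members in each of the 16 animals, with circles for slide 1, triangles for slide 2 and bars for mean ± SD of 4 animals; each panel has its own scale. For Tgtp2, Oas1a and Ifi27l2a the FD 95 °C animals lie above all FD and fresh animals, and for Stat2 the groups overlap.

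Of the other induced genes, Ifi27l2a had the largest difference of any member between FD 95 °C and FD, 1.08. It encodes a small mitochondrial protein widely used as a marker of the response, and its levels were -0.13, 0.31, -0.64 and -0.996 in the FD 5 Gy group, 0.48, 0.16, 0.17 and 0.16 in the FD 95 °C group, -0.93, -0.94, -0.36 and -1.11 in the FD group and -1.31, -1.13, -1.01 and -0.57 in the fresh group. FD 95 °C animals were above all FD and fresh animals and above FD 5 Gy animals 1, 3 and 4. Its difference from fresh was 1.25 ± 0.25 SE in FD 95 °C, a fold of 2.37 (adjusted p = 0.017), and 0.64 ± 0.25 SE in FD 5 Gy (adjusted p = 0.208). Lgals3bp, a secreted glycoprotein, had 0.94, 1.38, 0.58 and 0.055 in the FD 5 Gy group, 0.96, 0.99, 0.88 and 0.86 in the FD 95 °C group, 0.30, 0.33, 0.61 and 0.27 in the FD group and 0.16, -0.24, -0.032 and 0.42 in the fresh group. No FD 95 °C animal overlapped FD or fresh, and FD 5 Gy animal 4 was near the bottom. Lgals3bp stood above fresh by 0.85 ± 0.21 SE in FD 95 °C (adjusted p = 0.0489) and 0.66 ± 0.21 SE in FD 5 Gy (adjusted p = 0.14).

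Ifi44, a cytoplasmic protein of the response, gave -3.01, -2.57, -3.20 and -3.51 in the FD 5 Gy group, -3.59, -2.91, -3.15 and -3.31 in the FD 95 °C group, -4.16, -2.62, -3.18 and -3.73 in the FD group and -3.48, -3.61, -4.11 and -3.75 in the fresh group. FD animal 2 lay below FD 5 Gy animal 2 alone, and the groups overlapped. Xaf1, which promotes cell death, was measured at -1.52, -1.24, -1.83 and -2.20 in the FD 5 Gy group, -1.78, -1.50, -1.87 and -1.73 in the FD 95 °C group, -2.67, -1.90, -1.84 and -2.11 in the FD group and -2.13, -2.62, -2.43 and -2.09 in the fresh group. Its FD 95 °C animals were above all fresh animals and overlapped FD animal 3.

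Rtp4, a chaperone of receptor transport, averaged 0.59 ± 0.23 in FD 5 Gy, 0.67 ± 0.072 in FD 95 °C, 0.11 ± 0.19 in FD and 0.17 ± 0.23 in fresh brains (SD, n = 4 each). Parp14, an enzyme that attaches ADP-ribose to proteins, was higher in FD 95 °C than in fresh brains by 0.55 ± 0.13 SE (adjusted p = 0.0371) and stood 0.42 ± 0.13 SE above fresh in FD 5 Gy (adjusted p = 0.123). Ifi35, a cytoplasmic adaptor, was higher in both: by 0.47 ± 0.086 SE in FD 5 Gy (adjusted p = 0.0234) and by 0.41 ± 0.086 SE in FD 95 °C (adjusted p = 0.0214). A second Ifi35 probe gave 0.47 ± 0.10 SE and 0.29 ± 0.10 SE for these 2 differences. Trim30a, a ubiquitin ligase of mouse macrophages, was the member in which FD 5 Gy animal 4 lay furthest below its group, at -4.66 against -3.26, -2.96 and -3.73 in the other 3 animals.

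The 6 GTPases coat and disrupt the compartments in which pathogens live inside cells. They stood above FD by a median of 0.47 in FD 5 Gy and 0.31 in FD 95 °C. Gbp3, a guanylate-binding protein, gave -0.81, -0.45, -0.80 and -0.90 in the FD 5 Gy group, -1.09, -0.86, -1.01 and -0.76 in the FD 95 °C group, -1.42, -1.06, -1.15 and -1.45 in the FD group and -1.31, -1.56, -1.58 and -1.11 in the fresh group. FD 5 Gy animals were all above the FD and fresh animals, and FD 95 °C animal 1 overlapped FD. Gbp3 was higher in FD 5 Gy than in fresh brains by 0.65 ± 0.13 SE, a fold of 1.57 (adjusted p = 0.0324), and stood 0.46 ± 0.13 SE above fresh in FD 95 °C (adjusted p = 0.0772). Gbp2, of the same family, gave -1.73, -1.77, -2.17 and -2.31 in the FD 5 Gy group, -2.22, -1.97, -2.26 and -2.01 in the FD 95 °C group, -2.34, -2.31, -2.38 and -2.57 in the FD group and -2.53, -2.70, -2.50 and -2.50 in the fresh group. Neither treated group overlapped FD or fresh. Gbp2 was higher in FD 5 Gy than in fresh brains by 0.57 ± 0.12 SE (adjusted p = 0.04) and stood 0.44 ± 0.12 SE above fresh in FD 95 °C (adjusted p = 0.0692).

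Tgtp2, an immunity-related GTPase, stood at -3.06, -2.63, -3.17 and -3.89 in the FD 5 Gy group, -2.88, -2.86, -2.76 and -2.79 in the FD 95 °C group, -3.86, -3.997, -3.56 and -3.98 in the FD group and -3.94, -3.83, -4.26 and -3.52 in the fresh group. All FD 95 °C animals were above all FD and fresh animals, and FD 5 Gy animal 4 was among them. Tgtp2 was higher in FD 95 °C than in fresh brains by 1.06 ± 0.21 SE, a fold of 2.09 (adjusted p = 0.0174), and stood 0.70 ± 0.21 SE above fresh in FD 5 Gy (adjusted p = 0.119). After normexp background correction the FD 95 °C difference of Tgtp2 was 0.57 and still passed. Its near-identical copy Tgtp1 had no probe of its own here, so the signal may come from either gene. Iigp1, of the same family, had -2.47, -1.91, -2.75 and -2.75 in the FD 5 Gy group, -2.52, -2.46, -2.22 and -2.20 in the FD 95 °C group, -3.22, -3.37, -2.82 and -3.61 in the FD group and -3.21, -3.96, -3.07 and -2.76 in the fresh group. Neither treated group overlapped FD or fresh for Iigp1, and fresh animal 2 was lowest. Its difference from fresh was 0.78 ± 0.24 SE in FD 5 Gy and 0.90 ± 0.24 SE in FD 95 °C (adjusted p = 0.129 and 0.0658 from limma).

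Igtp, a regulator of the other GTPases, gave -0.39, -0.10, -0.39 and -0.54 in the FD 5 Gy group, -0.57, -0.44, -0.43 and -0.27 in the FD 95 °C group, -0.77, -0.50, -0.51 and -0.86 in the FD group and -0.70, -1.15, -0.91 and -0.72 in the fresh group. Fresh animals were below both treated groups, and FD animals overlapped them. Irgm1, with a similar role, averaged -0.95 ± 0.24 in FD 5 Gy, -1.05 ± 0.024 in FD 95 °C, -1.27 ± 0.33 in FD and -1.36 ± 0.34 in fresh brains (SD, n = 4 each).

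In antigen presentation, the immunoproteasome subunits Psmb8 and Psmb9 cut proteins into peptides, Tap1 carries the peptides into the endoplasmic reticulum, and B2m with the heavy chains H2-K1 and H2-D1 displays them. Tap1 was higher than in fresh brains in both treated groups, by 0.35 ± 0.072 SE in FD 5 Gy (adjusted p = 0.0359) and 0.36 ± 0.072 SE in FD 95 °C (adjusted p = 0.019). Neither Tap1 call held after normexp background correction (0.21 in FD 5 Gy and 0.18 in FD 95 °C) or with the mean of its probes (0.25 in FD 5 Gy and 0.12 in FD 95 °C). The lowest FD 5 Gy and FD 95 °C animals for Tap1, at -1.65 and -1.59, were above the highest FD animal, at -1.74, and the highest fresh animal, at -1.86. H2-K1 gave 1.52, 1.65, 1.36 and 1.23 in the FD 5 Gy group, 1.45, 1.58, 1.57 and 1.66 in the FD 95 °C group, 1.22, 1.19, 1.15 and 1.099 in the FD group and 1.04, 1.25, 1.19 and 1.27 in the fresh group. The lowest FD 95 °C animal lay above all FD and fresh animals, and FD 5 Gy animals overlapped fresh. H2-K1 was higher in FD 95 °C than in fresh brains by 0.38 ± 0.084 SE (adjusted p = 0.0277) and stood 0.25 ± 0.084 SE above fresh in FD 5 Gy (adjusted p = 0.154), and a second H2-K1 probe gave 0.22 ± 0.065 SE and 0.074 ± 0.065 SE. Class I heavy chains are alike in sequence, and which of them each probe detects was not tested.

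B2m stood at 2.81, 2.83, 2.57 and 2.38 in the FD 5 Gy group, 2.73, 2.73, 2.75 and 2.61 in the FD 95 °C group, 2.69, 2.64, 2.70 and 2.36 in the FD group and 2.41, 2.37, 2.28 and 2.42 in the fresh group. FD 5 Gy animal 4 and FD animal 4 lay in the range of the fresh animals, and the other animals of the 3 freeze-dried groups lay above it. Its difference from fresh was 0.28 ± 0.10 SE in FD 5 Gy, 0.33 ± 0.10 SE in FD 95 °C and 0.22 ± 0.10 SE in FD, with adjusted p of 0.175, 0.0896 and 0.479 from limma. Psmb8 gave -2.81, -2.59, -1.82 and -3.00 in the FD 5 Gy group, -2.64, -2.71, -2.73 and -2.89 in the FD 95 °C group, -3.07, -3.01, -2.74 and -3.16 in the FD group and -3.19, -3.23, -3.19 and -3.13 in the fresh group. FD 5 Gy animal 3 stood far above all others, and the fresh animals lay within a narrow band below both treated groups.

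Psmb9 gave -2.43, -2.19, -2.64 and -2.65 in the FD 5 Gy group, -2.38, -2.38, -2.30 and -2.34 in the FD 95 °C group, -2.90, -2.83, -2.56 and -2.88 in the FD group and -2.87, -2.71, -2.59 and -2.64 in the fresh group. FD 95 °C animals were above all FD and fresh animals, and FD 5 Gy animals 3 and 4 overlapped both. Of the whole set H2-D1 varied little, at 1.63 ± 0.025 in FD 5 Gy, 1.62 ± 0.053 in FD 95 °C, 1.51 ± 0.045 in FD and 1.56 ± 0.031 in fresh brains (SD, n = 4 each).

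The members varied among FD 5 Gy animals far more than among FD 95 °C animals. The median SD of the 37 members was 0.290 in FD 5 Gy, 0.0837 in FD 95 °C, 0.184 in FD and 0.256 in fresh brains, against 0.121, 0.102, 0.131 and 0.164 over all genes and features in these groups. The SD was larger in FD 5 Gy than in FD 95 °C for 35 of 37 members, or 94.6%, beside 60.2% of all. Most members varied together, as given below, so these are not 37 independent observations. FD 5 Gy lay on both slides and FD 95 °C on slide 2 alone, so the FD 5 Gy SD can hold a slide difference. Within FD 5 Gy, animal 2 had the highest level for 33 of 37 members and animal 4 the lowest for 32. In FD, animal 3 had the highest level for 23 members and animals 4 and 1 the lowest for 19 and 16, and in the fresh group animal 4 was highest for 23 and animal 2 lowest for 20. In FD 95 °C, animals 1 to 4 were highest for 6, 10, 10 and 11 members and lowest for 20, 2, 6 and 9.

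**Figure D5:**
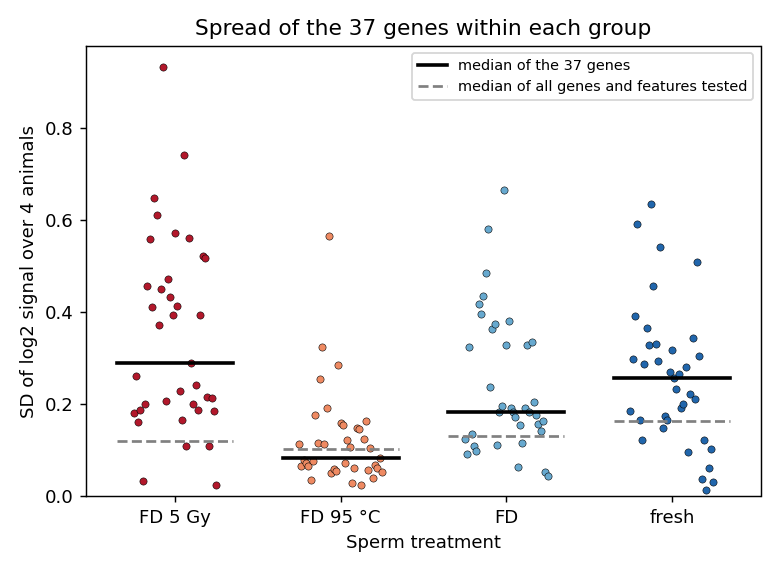
SD of log2 signal over the 4 animals of each group for each of the 37 members (points), with the median of the members (solid line) and of all genes and features tested (dashed line). The members' median lies above the dashed line in FD 5 Gy (0.290 against 0.121), in FD and in fresh brains and below it in FD 95 °C (0.0837 against 0.102).

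FD 5 Gy is also the treated group that lay on both slides. The mean of its slide 2 animals, 3 and 4, was below that of its slide 1 animals, 1 and 2, for 35 of 37 members. The median difference was -0.43. Single animals of the 2 slides overlapped for some of these members, such as Gbp3 and Tap1. limma called 0 members, beside 0.00378% of all genes and features lower, and 20 members passed an unadjusted p under 0.05 downwards, beside 5.09% of all. The lowest unadjusted values belonged to Ifitm3 (-0.70 ± 0.16 SE), Bst2 (-0.74 ± 0.17 SE) and Trim30a (-1.08 ± 0.25 SE), each with an adjusted p of 0.23. In the fresh group, the median of slide 2 minus slide 1 was 0.087, with 25 of 37 members higher, 0 called beside 1.44% of all, and 3 at an unadjusted p under 0.05 upwards beside 12.3% of all. It was -0.059 without fresh animal 2. The slide difference in FD 5 Gy minus that in fresh had a median of -0.52, with 0 members called and 17 at an unadjusted p under 0.05 downwards, beside 3.2% of all. The microglial markers moved the same way in FD 5 Gy, with a median of -0.15 and 11 of 14 lower on slide 2. With 2 animals per slide, the slide and the single animal cannot be told apart, and FD 5 Gy animal 4 is also the animal of its group with low Y-linked signal.

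Within slides, the members' median difference of FD 5 Gy from FD was 0.63 on slide 1, the slide that holds both. That of FD 5 Gy from fresh was 0.72 on slide 1, with 12 members called higher by limma beside 1.07% of all. On slide 2 it was 0.20, with 0 called beside 0.00378% of all and 8 at an unadjusted p under 0.05 upwards beside 4.63%. That of FD 95 °C from fresh was 0.42 on slide 2, with 0 called beside 0.068% of all and 27 at an unadjusted p under 0.05 upwards beside 6.74%. That of FD from fresh was 0.20 on slide 1, with 0 called beside 0% of all and 4 at an unadjusted p under 0.05 upwards beside 6.79%. With the slide as a block over all arrays, 8 members were called higher in FD 5 Gy against fresh, beside 1.47% of all, and 8 in FD 95 °C against fresh, beside 1.34%. The block takes the same slide difference for every group, whereas the median slide differences of FD 5 Gy and fresh had opposite signs.

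Most members varied together among the animals of a group. After removing the group means, each member was set against the mean of the other 36 over the 16 arrays, which share scaling and hybridisation. The median Pearson correlation was 0.791, against 0.008 for all genes and features with the mean of the members, and it was over 0.5 for 31 of 37 members. Irf7 (0.949), Rtp4 (0.945), Isg15 (0.941) and Oasl2 (0.935) followed the others most closely. The loosest were Eif2ak2 (0.121), Psmb8 (0.193), H2-D1 (0.321) and Stat2 (0.370), the first of which carried the high value of fresh animal 3 and Psmb8 that of FD 5 Gy animal 3. Among the 12 genes outside the set with the closest course were Ifit3b (0.925), Cst3 (0.916), Fcgr1 (0.908), Ifi204 (0.906), Aloxe3 (0.900), Gbp6 (0.899), Hebp1 (0.896), C1qb (0.893), Zfp641 (0.884), Trim30d (0.875) and Slfn8 (0.856). Ifit3b, Ifi204, Gbp6 and Slfn8 were on the list of other interferon-induced genes given below, and C1qb is a microglial marker.

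Few genes that induce or transmit the response passed the test. Of 9 interferon genes listed, 8 had a probe, and the probes of Ifnb1, Ifng, Ifna2, Ifna4, Ifna5, Ifnk and Ifne were not well above background in any whole group. Ifnl3 alone was tested, with means of -2.99 ± 0.11 in FD 5 Gy, -3.08 ± 0.13 in FD 95 °C, -3.15 ± 0.18 in FD and -3.05 ± 0.11 in fresh brains (SD, n = 4 each), and did not pass. Of the 9 receptor chains and kinases tested, 0 were called in any of the 6 comparisons by limma, and the receptor chain Ifnar1 averaged 2.31 ± 0.21, 2.35 ± 0.077, 2.13 ± 0.23 and 2.25 ± 0.22 in the FD 5 Gy, FD 95 °C, FD and fresh groups. At an unadjusted p under 0.05, 1 of the 9 was higher and 0 lower in each treated group against fresh. With the slide as a block, 3213 of all 26477 genes and features passed that threshold upwards and 1940 downwards in FD 5 Gy against fresh. In FD 95 °C against fresh 2403 passed upwards and 1167 downwards. That fit is not the one behind the list counts at an unadjusted p here and below, and nothing is read from those counts. The 9 inhibitors, among them Socs1 and Socs3, also had 0 calls, with 0 higher and 2 lower at an unadjusted p under 0.05 in FD 5 Gy and 0 higher and 1 lower in FD 95 °C against fresh. Of 7 other factors, Irf8, a factor of macrophages and microglia, was higher in FD 95 °C than in fresh brains by 0.31 ± 0.066 SE (adjusted p = 0.0256). Of 10 upstream adaptors, 0 were called against fresh, with 1 higher and 3 lower at an unadjusted p under 0.05 in FD 5 Gy and 1 higher and 1 lower in FD 95 °C.

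Other interferon-induced genes, a list of 37 tested genes outside the set, were also mostly higher. This list, like the lists above and the markers below, was chosen with earlier results of these arrays known, so its values are a description. Of all genes and features, limma called 0.865% higher in FD 5 Gy and 2.39% higher in FD 95 °C against fresh. In FD 5 Gy against fresh 34 were higher, with a median of 0.31, and Uba7, the enzyme that activates Isg15, was called (0.41 ± 0.090 SE, adjusted p = 0.043). In FD 95 °C against fresh 33 were higher, with a median of 0.35 and 6 called, among them Samd9l (0.53 ± 0.093 SE, adjusted p = 0.00999), Uba7 (0.47 ± 0.090 SE, adjusted p = 0.0143) and Parp10 (0.35 ± 0.070 SE, adjusted p = 0.0174). Of 17 other genes of antigen presentation, 2 were called higher in FD 95 °C against fresh: the class II chain H2-Ab1 (0.61 ± 0.086 SE, adjusted p = 0.00423) and Tap2, the partner of Tap1 (0.61 ± 0.092 SE, adjusted p = 0.00554). In FD 5 Gy against fresh limma called 0 of these 17, with 4 at an unadjusted p under 0.05 upwards.

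Markers of several resident cell types also differed from fresh. Of all genes and features, limma called 0.865% higher in FD 5 Gy and 2.39% higher in FD 95 °C against fresh. The share of all at an unadjusted p in this fit is not given here, so nothing is read from the marker counts at that threshold. Of the 14 microglial markers, Csf1r, P2ry12 and Trem2 were called higher in FD 95 °C than in fresh brains. The list median there was 0.22 above fresh and 12 were higher. In FD 5 Gy the median was 0.18 with 0 called and 4 at an unadjusted p under 0.05 upwards. Of the 7 astrocyte markers, all were higher than in fresh brains in FD 5 Gy (median 0.17, 0 called by limma, 3 at an unadjusted p under 0.05) and in FD 95 °C (median 0.19, 1 called). Their centred mean ran from -0.030 to 0.11 in FD 5 Gy, from 0.0998 to 0.32 in FD 95 °C, from -0.25 to 0.072 in FD and from -0.44 to -0.044 in fresh animals. The 8 markers of the choroid plexus, which secretes cerebrospinal fluid, had a median of 0.36 above fresh in FD 5 Gy, with 8 higher and Kcnj13 called (0.64 ± 0.14 SE, adjusted p = 0.0432). In FD 95 °C their median was 0.36, with 7 higher and 0 called by limma (5 higher and 1 lower at an unadjusted p under 0.05). Their centred mean ran from -0.20 to 0.32 in FD 5 Gy, from -0.079 to 0.24 in FD 95 °C, from -0.16 to 0.22 in FD and from -0.33 to 0.038 in fresh animals. The 9 endothelial markers had medians of 0.092 in FD 5 Gy and 0.054 in FD 95 °C against fresh. Flt1 and Abcb1a were called higher in FD 95 °C and 0 were called in FD 5 Gy (1 at an unadjusted p under 0.05). The medians of the 9 markers of meninges and fibroblasts were 0.16 in FD 5 Gy and -0.0088 in FD 95 °C, with 0 called by limma and 2 and 1 at an unadjusted p under 0.05 upwards. Of 12 blood leukocyte markers 6 were tested, with a median of 0.023 in FD 5 Gy and -0.17 in FD 95 °C against fresh, and the probes of Cd8a, Nkg7, Mpo and Ms4a1 were not well above background in any whole group. The centred mean of the 6 ran from -0.22 to 0.14 in FD 5 Gy, from -0.24 to 0.19 in FD 95 °C, from -0.14 to 0.38 in FD and from -0.28 to 0.63 in fresh animals. The part of these cells in the values of the 37 members was not tested.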

How the data were processed

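Per the labels, brain RNA of 16 neonates was hybridised to single-colour Agilent arrays, 4 per group. The authors' scanner files came from Agilent Feature Extraction (version 11.0.1.1 in the file headers and the submitters' processing notes) and hold background-subtracted fluorescence intensity per spot. A deposited set of values on the log2 scale covers 31313 probes, with column medians from 9.335 to 9.348. How it was made is not stated in the sources used here, and it served as an alternative only, for the 36 tested members it holds.

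Of 62976 spots per array, 3671 controls were left out. Spots of a probe were averaged (56605 probes, 50 outlier values left out, 0 saturated spots), put on the log2 scale and set against the 75th percentile of their array. A probe was kept where all 4 arrays of any group showed it well above background (34261 probes), and the brightest stood for its gene, which left 26477 genes and features, 15993 of them named through RefSeq. Between 59.9% and 66.1% of an array's spots were well above background, and the number of arrays limits the precision. limma 3.58.1 in R 4.3.3 (and version 1.17.8 of data.table) fitted 4 group means with 12 residual degrees of freedom, two-sided moderated tests and Benjamini-Hochberg adjustment, and the fit was tested on simulated data. Slides were read from the array headers. Alternatives were quantile normalization, normexp (offset 50, on the median spot signal in place of the planned mean signal, which the scanner files read here do not list), the deposited log2 values, other filters and probe summaries, slide and replicate blocks, a Y-linked covariate, arrays left out and fits of only the groups compared. Same-numbered animals of different groups deviated together (r over 0.1) in 10 of 24 pairs, with r from -0.387 to 0.383. Whether the numbers pair animals was not tested, and the main fit does not use them.

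The members, role lists, context lists and markers were chosen with earlier results of these data known. Values in every array are given for Isg15, Irf7, Stat2, Ifi27l2a, Tgtp2, Oas1a, Gbp3 and B2m and, in each role, for up to 3 further members with the widest span of group means. Outside the set, the 12 genes with the closest course, up to 4 of each context list with the smallest p or highest level, and markers may be named. Some genes of these lists are not reported here.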

Additional observations from a re-analysis of the deposited data

Results flagged for a closer look

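In 8 of 152 sets of 4 animals (the 37 members and their mean in each group), the highest or lowest animal was separated from its nearest neighbour by more of the group's range than Dixon's 95% critical value for 4 values. About 1 in 20 such sets passes that value by chance. In FD 95 °C brains 5 sets were marked: Ifi27l2a in animal 1, at 0.48 against 0.17 for its nearest neighbour (gap 0.957 of the range), Irf7 in animal 1, at 0.43 against 0.57 (gap 0.853), Irf9 in animal 3, at 1.52 against 1.46 (gap 0.843), Ifi35 in animal 4, at -0.087 against -0.036 (gap 0.873) and B2m in animal 4, at 2.61 against 2.73 (gap 0.851). In FD brains 2 sets were marked: Dhx58 in animal 1, at -4.53 against -3.93 (gap 0.878), and Oas1a in animal 3, at -1.22 against -1.66 (gap 0.897). In fresh brains Gbp2 in animal 2 was marked, at -2.70 against -2.53 (gap 0.854). No cause was tested for any of them.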

How the results depend on the processing

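The median difference of the members kept its sign in every setting run for FD 5 Gy and FD 95 °C against FD and against fresh and for FD against fresh, while the counts of calls did not hold. The set was chosen with results of the treated groups on these same arrays in view. Every setting reuses those arrays, so the kept sign is a description and nothing is read from it. Members called in FD 95 °C against FD numbered 7 in the main fit, 0 in the deposited table, 4 without the filter on dim probes (where the median of all genes was 0.11), 0 with the slide as a block, 3 with the Y-linked covariate, 0 without the 4 arrays low in Hox genes, and 1 to 9 without single replicates; the median was 0.59 with the slide block. That slide-block median rests on the slide differences within FD 5 Gy and fresh. Without the filter, 1.11% of all genes and features were called higher in FD 95 °C against FD, and the other shares are given above. In FD 5 Gy against fresh the main fit called 4 members, beside 0.865% of all higher. With the share of all in brackets, the count was 2 after quantile normalization (0.736%), 2 after normexp (0.415%), 0 without the filter (0.112%) and 8 with the slide block (1.47%). It was 1 with the covariate (0.381%), 0 without the Hox-low arrays (0%), 0 with only both groups fitted (0.234%), and 0 to 8 without single replicates (0.132% to 1.29%). In FD 95 °C against fresh the main fit called 10 members, beside 2.39% of all higher. The count was 1 in the deposited table (0.989%), 3 without the filter (0.533%), 6 with the mean of probes (2%) and 6 with a replicate block (2.14%). It was 0 without the Hox-low arrays (0%), 2 with only both groups fitted (0.151%), and 1 to 14 without single replicates (0.82% to 3.21%). Whether the replicate numbers pair the animals was not tested, and the replicate block changed no other count by more than 1.5 times.

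For FD 5 Gy against FD 95 °C the median of -0.0004 became 0.0038 after quantile normalization, 0.0022 with the mean of probes and 0.0031 without the Hox-low arrays, and ran from -0.1663 to 0.0776 without single replicates (0.0179 without FD 5 Gy replicate 3, 0.0008 without FD 95 °C replicate 2). For slide 2 against slide 1 in fresh brains the median of 0.087 became -0.0389 in the deposited table and ran from -0.0589 to 0.2738 without single replicates, with 0 to 1 called, as in the difference of slide differences. The causes were not tested. With 4 animals per group on 2 slides, unknown litters, and Y-linked and Hox signals unevenly spread over the groups, single calls rest on few animals.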
